A study of Mus musculus with 6 samples.

Results

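Msln, Map6, Havcr2, Sulf1, Emp2, Fat2 and Sphk1 are 7 of the 24421 genes in the count table. They were chosen by their read counts, which were higher in both cultured endothelial lines with raised Dot1l than in the matched control lines, so their levels in those 4 libraries are a description and carry no test. Each of 6 conditions was sequenced as 1 library, so no difference has a replicate check. Skin blood endothelial cells (BECs) came from E15.5 mouse embryos. The Tie2-Cre(+); Dot1l 2f/2f library (cKO) was compared with a littermate Tie2-Cre(−); Dot1l 2f/2f library (Cont), so both carried the floxed alleles. GEO calls these genotypes Dot1l KO and wild type. RNA of 2 to 3 embryos was pooled for each, and cells positive for F4/80, CD45 or Lyve1 were depleted. Tie2-Cre is also known to be active in blood cells. The other 4 libraries were cultured lines, embryonic yolk sac BECs (CRL-2581) and embryonic dermal lymphatic endothelial cells (LECs, C57-6064L). A lentivirus with dCas9-VP64, a nuclease-dead Cas9 fused to a transcriptional activator, and guide RNAs to the Dot1l promoter gave OE-BECs and OE-LECs. Their controls (Cont BECs and Cont LECs) received empty lentivirus, and EGFP(+) cells of 2 to 3 flasks were sorted for each library. Below, values of a pair are given with the control first, and the BEC and LEC pairs are the cultured ones.

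Dot1l is a histone H3 lysine methyltransferase whose mark lies over the bodies of transcribed genes. The 7 genes do not form a known pathway. Msln encodes mesothelin, a GPI-anchored surface protein of mesothelial cells that binds the mucin Muc16. Havcr2 encodes TIM-3, an inhibitory receptor of T cells and myeloid cells, and Emp2 encodes a tetraspan membrane protein of the PMP22 family. Fat2 is a giant atypical cadherin. Sulf1 is a secreted endosulfatase that removes 6-O-sulfate groups from heparan sulfate and so alters the binding of growth factors to endothelial cells. Sphk1 makes sphingosine-1-phosphate, a lipid ligand of endothelial receptors that maintains vessel barriers and guides lymphocyte traffic. Map6 stabilises microtubules and is best known from neurons.

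The libraries held 8863349 to 31032461 reads assigned to genes, and 15016 to 18027 genes had a read. The ribosomal transcript Rn45s took 10.9% of reads in OE-BECs and 5.91% in cultured Cont BECs, against at most 0.57% elsewhere. Dot1l stood at 112 reads per 1000000 assigned to genes (CPM) in cultured Cont BECs and 302 in OE-BECs, and at 95.3 in Cont LECs and 217 in OE-LECs. Both skin libraries were alike, at 86.0 for Cont and 85.2 for the one labelled cKO. The gene count sums all exons, so it does not check the deletion of the floxed part, and cKO below means the library labelled so. Of the 8 LEC markers, Prox1 had 0 reads in all 4 cultured libraries, those labelled LEC included, against 1304 and 883 in skin Cont and cKO, and Pdpn, Reln, Mmrn1 and Ccl21a had 0 to 5 reads in the cultured ones. Lyve1 was high, with 52184 and 60898 reads in the LEC pair, 10680 and 14786 in the BEC pair and 9105 and 19959 in skin, although Lyve1-positive cells had been depleted from the latter. Flt4 and Nrp2 were detected everywhere, and the 8 summed to 2310 and 2340 CPM in the LEC pair, 945 and 1360 in the BEC pair and 3650 and 3800 in skin. The 12 genes listed as BEC markers had a lower sum in each comparison. They include Cdh5, which the paper shows as lowered in cKO LECs, so their sum does not tell BECs from LECs. They summed to 9320 and 6160 CPM in the BEC pair, 7650 and 7170 in the LEC pair and 6660 and 4180 in skin. Their median log2 ratios were -0.61, -0.27 and -0.70, against 0.01, 0.0 and 0.0 for all genes. Of their 12 counting intervals 10 in the BEC pair and 9 in the LEC pair lay below 0. The share of all genes was not calculated there, so nothing is read from these counts. In skin 11 lay below 0, against 25.0% of all genes. By the rule given below, 3, 1 and 0 of the 12 markers were called lower, against 5.27%, 2.09% and 2.41% of all genes. None was called higher, against 8.02%, 2.77% and 5.17%. Their part in the results for the 7 genes was not tested. The 12 macrophage markers summed to 3910 CPM in skin Cont and 5940 in skin cKO, and the 14 measured mesothelial markers, Msln not among them, to 132 and 189. In the cultured lines these sums were 35.8 to 96.7 and 0.306 to 1.51 CPM. Summed T cell markers were 33.7 CPM in skin Cont and 76.2 in skin cKO. This sum rested on Cd28 (78 and 488 reads) and Cd4 (69 and 239), while Cd3e (39 and 1) and Cd3g (19 and 8) were called lower and the list's median log2 ratio was -0.11. They were 5.77 and 4.66 in the BEC pair and 8.58 and 6.09 in the LEC pair. Keratinocyte markers summed to 173 and 285 CPM in skin Cont and cKO, to 106 and 112 in Cont BECs and OE-BECs, and to 57.5 and 121 in Cont LECs and OE-LECs. In the cultured lines this was mostly Itgb4 (58.5, 53.8, 43.8 and 89.8 CPM) and Ivl (36.2, 44.9, 6.36 and 21.4), and Krt5, Krt14, Krt1, Krt15, Dsg3 and Lor had 0 reads. Fibroblast markers summed to 2900 and 2130 CPM in skin, 3.22 and 6.6 in the BEC pair and 8.16 and 20.7 in the LEC pair.

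**Figure D1:**
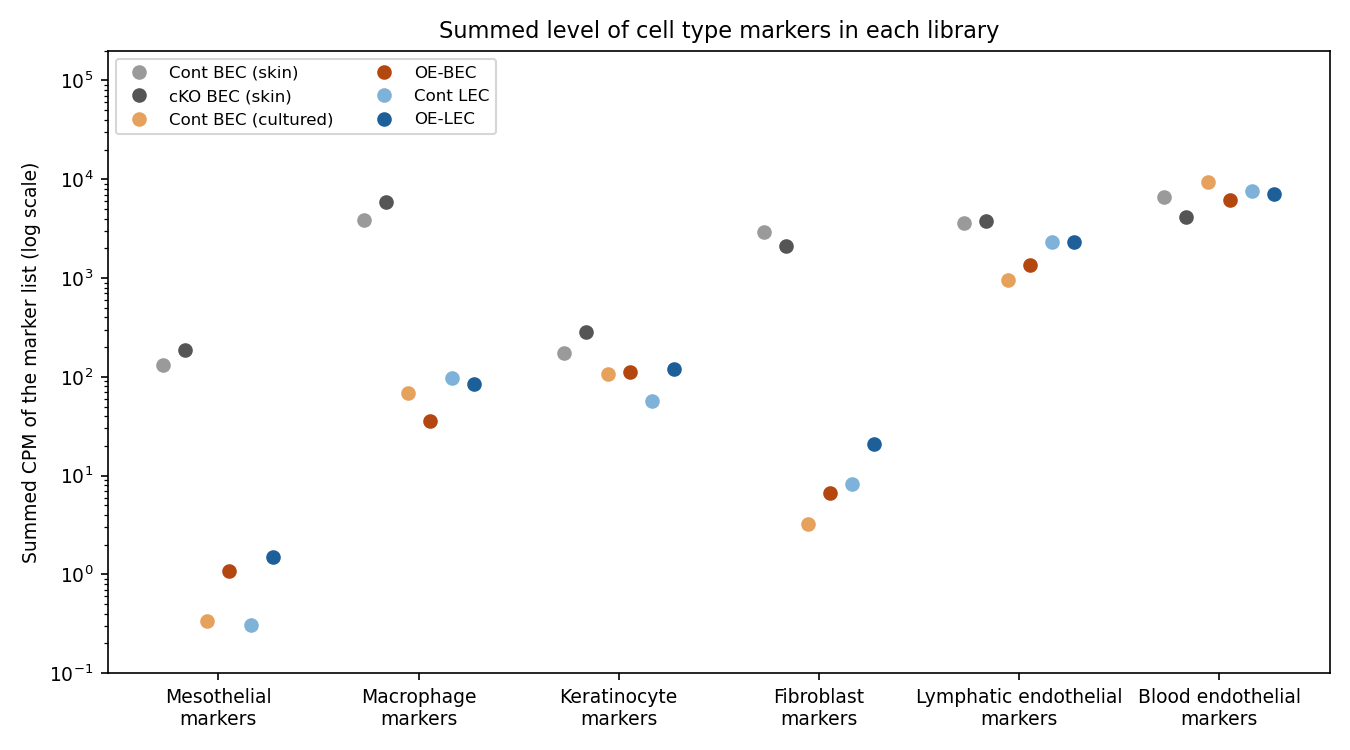
Summed CPM (log axis) of each list of cell type markers in the 6 libraries, 1 point for each library and list. Mesothelial markers summed to at most 1.51 CPM in the 4 cultured libraries. The genes listed as BEC markers, whose sum does not tell BECs from LECs, reached 4180 CPM or more in all 6.

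Sequence around transcription starts was available from RefSeq (GRCm38.p6) for Havcr2, Emp2, Fat2 and Sphk1. It came in 8 windows that span 250 bases before to 50 bases after a transcription start, of which Sphk1 has 5. Msln, Map6 and Sulf1 had no entry. Havcr2, Fat2 and Emp2 are printed, as each has 1 window, whose 250 bases before the start overlap no annotated exon. Those of Sphk1 are given by their motifs only, since 4 of its 5 overlap an exon. Together they show 3 unlike stretches before a RefSeq start among genes that were higher in the same 2 lines. Whether the Fat2 stretch, which lies inside the gene, acts as a promoter was not tested. Capitals mark matches, on either strand, to the AP-1 motif TGANTCA, the TEAD motif GGAATG and the GC box GGGCGG. All are written 5′ to 3′ on the gene's own strand. Havcr2 lies at chr11:46454681-46454930 (plus strand), Fat2 at chr11:55312258-55312507 (minus strand, within an intron of the annotated gene) and Emp2 at chr16:10313969-10314218 (minus strand).
Havcr2: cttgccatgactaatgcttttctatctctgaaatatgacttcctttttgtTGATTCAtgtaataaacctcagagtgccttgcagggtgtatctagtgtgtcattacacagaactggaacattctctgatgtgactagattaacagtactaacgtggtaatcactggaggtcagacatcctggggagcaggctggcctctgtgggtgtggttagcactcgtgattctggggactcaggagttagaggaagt
Fat2: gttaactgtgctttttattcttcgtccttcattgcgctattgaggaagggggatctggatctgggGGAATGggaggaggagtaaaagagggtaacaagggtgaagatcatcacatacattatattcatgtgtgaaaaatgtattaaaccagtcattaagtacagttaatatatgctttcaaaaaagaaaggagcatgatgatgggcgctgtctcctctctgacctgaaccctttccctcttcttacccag
Emp2: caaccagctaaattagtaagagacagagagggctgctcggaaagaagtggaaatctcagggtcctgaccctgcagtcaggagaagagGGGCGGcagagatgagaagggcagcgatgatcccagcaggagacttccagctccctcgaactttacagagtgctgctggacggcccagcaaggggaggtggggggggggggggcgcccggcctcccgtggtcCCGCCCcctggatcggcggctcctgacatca
The Havcr2 stretch holds 2 CpG dinucleotides at 44.8% G and C, and its AP-1 match begins 200 bases before the start. Fat2 has 3 CpGs at 41.6% and a TEAD match 185 bases before the start. Emp2 has 11 CpGs at 62.8%, with GC boxes 163 and 31 bases before the start, the nearer one as its reverse complement, and 2 more after the start. The median of all 32851 windows was 52.4% G and C with 6 CpGs.
TGANTCA occurs in 7.81% of all windows and in 3 of the 8 of these genes, the others being 2 overlapping Sphk1 windows. GGAATG occurs in 14.7% and 2 of 8, GGGCGG in 35.7% and 1 of 8, CCAAT in 37.4% and 2 of 8, and TATAAA in 13.6% and 1 of 8. The E-box CANNTG, not capitalised, occurs in 72.3% and 3 of 8, and the CRE motif TGACGTCA in 1.79% and 0 of 8. The CCAAT matches of Sphk1 are in overlapping windows too. No motif searched was found in all 4 genes. A match of these letters says nothing of binding.

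A gene was called higher when its normalised read count, scaled by DESeq2's median of ratios within a pair, was at least 3 (5 for skin) and more than 3 times that of the other library. By this rule 6 of the 7 genes were called higher in OE-BECs, where 8.02% of 14792 genes tested were. All 7 were called in OE-LECs, against 2.77% of 13883, and 6 in both lines, against 0.659% of 13362. These counts follow from how the genes were chosen. None was called lower, against 5.27% in OE-BECs and 2.09% in OE-LECs. Being higher in both lines by any amount, as the choice required, held for 29.1% of genes tested in both. The counting interval of all 7 lay above 0 in both lines, which it did for 10.4% of genes (26.3% in OE-BECs and 22.8% in OE-LECs). Sulf1 was the gene not called in OE-BECs, at 1.78-fold. Havcr2 stood nearest to the threshold, at 3.06-fold in OE-BECs and 3.0-fold in OE-LECs. Over 6 settings of scaling and pseudocount it passed 3-fold in 5 for OE-BECs (lowest 2.98) and in 1 for OE-LECs (lowest 2.96). In skin cKO BECs, which the choice did not use, 1 of the 7 genes was called higher (Havcr2), against 5.17% of 15993 genes tested, and 0 of 7 lower, against 2.41%. The skin values for 6 of the 7 were above those of Cont, but the 95% counting interval of 6 included 0. That of Havcr2 lay above 0, as for 22.8% of genes, and 0 of 7 lay below, against 25.0%. The median log2 ratio of the 7 in skin, after 1 was added to each normalised count, was 0.26, and that of all genes tested 0.0. All intervals are exact, 95%, and cover counting error only, as the reads carry no molecular identifiers. With bulk RNA, more cells of a type and more RNA per cell cannot be told apart.

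**Figure D2:**
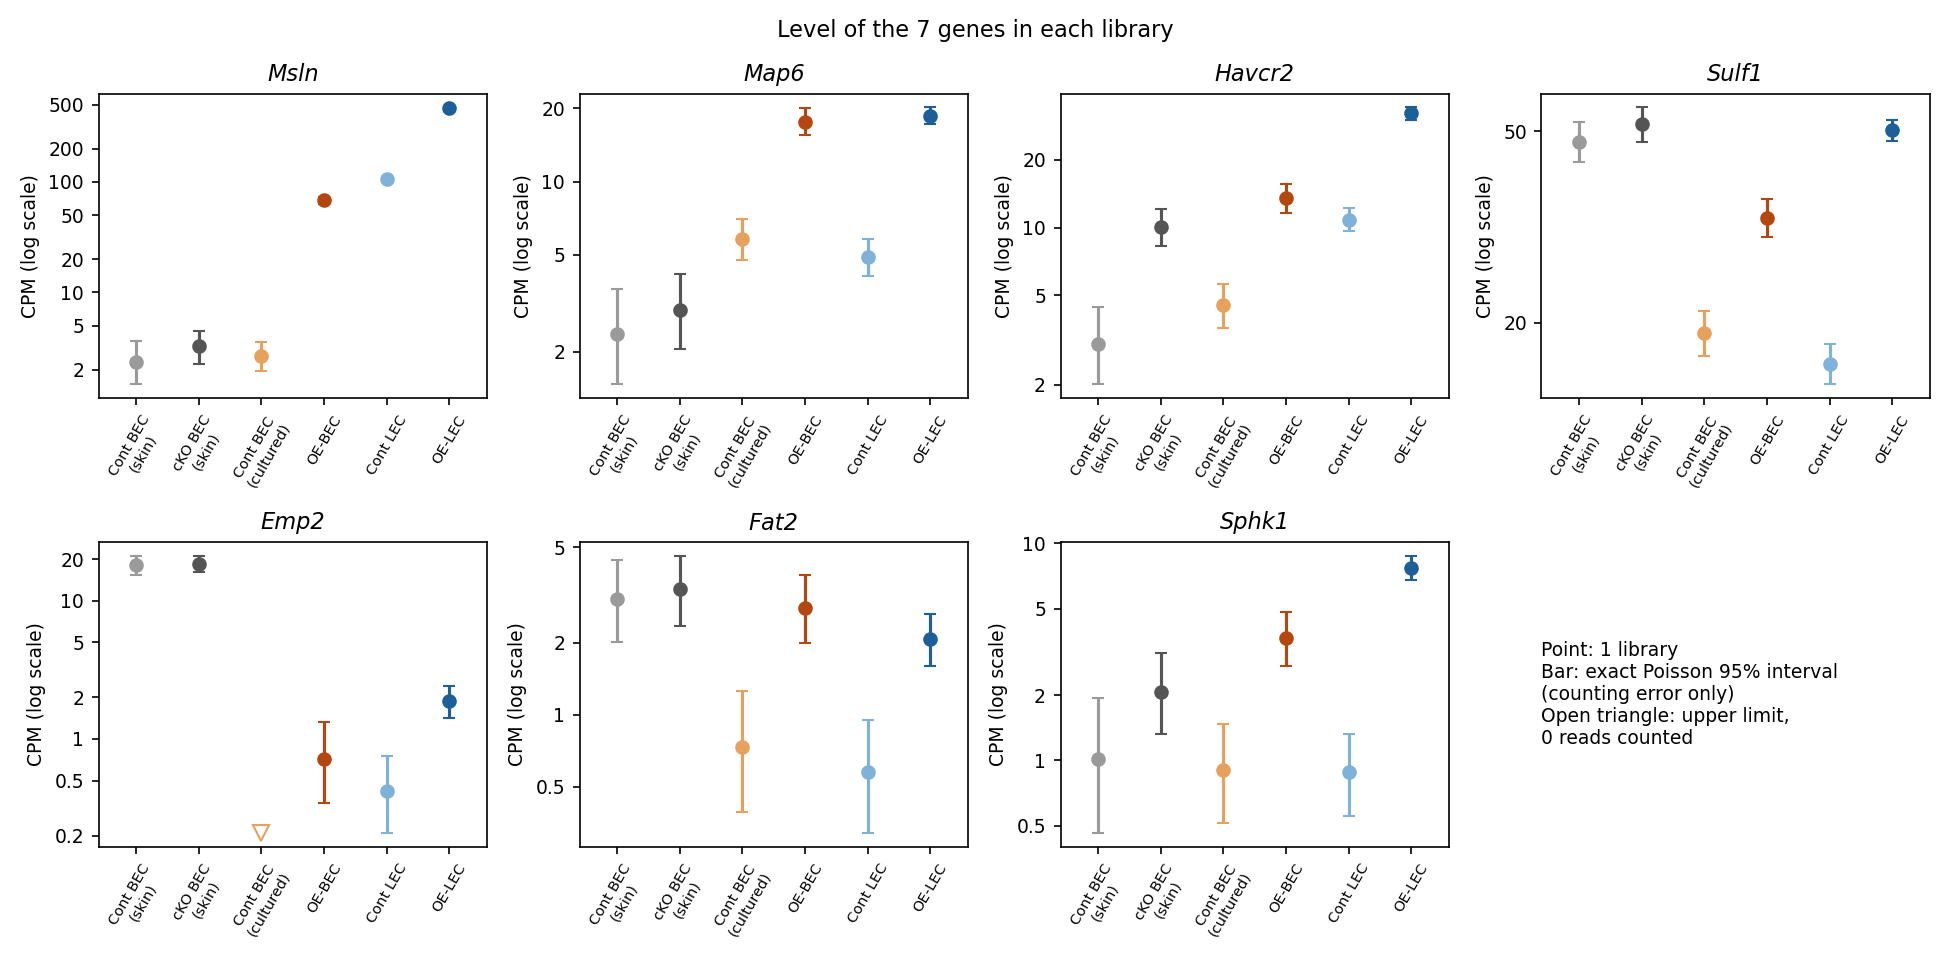
Level of each of the 7 genes in the 6 libraries as CPM on a log axis, with bars for the exact Poisson 95% interval. Msln reached 464 CPM in OE-LECs, and Emp2 was higher in the 2 skin libraries, at 18.1 and 18.4 CPM, than in any cultured line.

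Mesothelin was the most abundant of the 7 in OE-LECs. Msln (chr17:25748613-25754378, minus strand, mm10) had 21 and 36 reads in skin Cont and cKO, 47 and 945 in the BEC pair, and 2750 and 14395 in the LEC pair. These are levels of 2.37, 3.25, 2.66, 67.8, 105 and 464 CPM. The 2 LEC libraries and OE-BECs were each apart from the rest, whereas skin Cont, skin cKO and cultured Cont BECs overlapped in their counting intervals. Msln was 26.2-fold higher in OE-BECs than in Cont BECs (log2 ratio 4.71, interval 4.29 to 5.17) and 4.46-fold higher in OE-LECs than in Cont LECs (2.16, 2.10 to 2.22). The OE-LEC level exceeded that of 98.7% of genes. In skin the log2 ratio was 0.40 (interval -0.42 to 1.25).

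The other markers of mesothelial cells were near 0 in the cultured lines. Of 14 such genes in the table, 8 and 10 had no read in the BEC pair and 9 and 5 in the LEC pair, and their summed reads were 6 and 15, and 8 and 47. Only 3 of the 14 reached the minimum in each cultured pair, and those that did so through the OE library alone had to be higher there, so nothing is read from their calls. In the BEC pair all 3 were called higher, Krt19 (0 and 7 reads), Slpi (1 and 4) and Cdh1 (1 and 3). In the LEC pair Krt19 (1 and 28 reads) and Upk1b (0 and 7) were called higher and Slpi (3 and 5) was not. The log2 ratio of Krt19, a simple epithelial keratin, was 4.58 in the LEC pair, with a wide interval of 1.98 to 9.93. Wt1 and Calb2, which are used as mesothelial markers, had 0 reads in both OE lines, and Upk3b had 0 in OE-BECs and 1 in OE-LECs. In skin, where summed mesothelial reads were 1174 in Cont and 2095 in cKO, 3 of 11 tested members were called higher (Upk1b, 14 and 181 reads, Krt19, 53 and 223, Calb2, 1 and 6) and 0 lower, against 5.17% and 2.41% of all genes. Their median log2 ratio was 0.85, and that of all genes 0.0. Msln itself had 21 and 36 reads there.

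Havcr2 was the only one of the 7 called higher in all 3 comparisons, although it stood at the threshold and lost the OE-LEC call in 5 of those 6 settings and the OE-BEC call in 1. Havcr2 (chr11:46454935-46481255, plus strand) had 27 and 111 reads in skin Cont and cKO, 80 and 188 in the BEC pair, and 283 and 997 in the LEC pair. The levels were 3.05, 10.01, 4.52, 13.5, 10.8 and 32.1 CPM. OE-LECs were highest, OE-BECs, Cont LECs and skin cKO overlapped at 10.01 to 13.5 CPM, and cultured Cont BECs and skin Cont overlapped at the bottom. The log2 ratio was 1.62 (interval 1.23 to 2.01) in the BEC pair, 1.59 (1.39 to 1.78) in the LEC pair and 1.66 (1.04 to 2.33) in skin. In skin the gene's higher level went with higher reads for macrophage genes. Of the 12 macrophage markers 10 had intervals above 0, against 22.8% of all genes, and the list's median log2 ratio was 0.59. None of them was called higher or lower, against 5.17% and 2.41% of all genes. Mrc1 had 22493 reads in Cont and 43350 in cKO, Adgre1, which encodes the depleted antigen F4/80, 1719 and 3411, and C1qa 624 and 1473. The remaining 2 markers were lower in cKO, Cd14 with 207 and 114 reads (log2 ratio -1.24, -1.58 to -0.90) and Cx3cr1 with 1527 and 1072 (-0.89, -1.0 to -0.77). Their part in the Havcr2 difference was not tested. In the 4 cultured libraries Adgre1 and C1qa had 0 reads, and the other 10 markers had at most 85 apart from Cd68, with 1093 and 448 in the BEC pair and 2435 and 2488 in the LEC pair. The summed macrophage level was 68.1 and 35.8 CPM in the BEC pair and 96.7 and 84.7 in the LEC pair. Of the 6 T cell markers tested in skin, 1 was called higher and 2 lower, against 5.17% and 2.41% of all genes. Of the 12 keratinocyte markers there, 4 were called higher and 0 lower, with a median log2 ratio of 1.01. Whether either list bears on Havcr2 was not tested.

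Relatives and ligands of TIM-3 and other checkpoint genes went both ways. Among 11 tested in each cultured pair, 1 was called higher and 1 lower in OE-BECs, where 8.02% and 5.27% of all genes were, and 1 higher and 0 lower in OE-LECs, against 2.77% and 2.09%. With so few genes, these counts are near those shares. The median log2 ratios were 0.38 in OE-BECs, against 0.01 for all genes, and 0.13 in OE-LECs, against 0.0. Havcr1, the related TIM-1 gene, had 0 reads in every library. Lgals9 encodes galectin-9, a TIM-3 ligand, and had 14606 and 5637 reads in the BEC pair (-0.99, -1.04 to -0.95). In the LEC pair it had 13412 and 17285 reads and a ratio of 0.14. Cd274, which encodes PD-L1, had 67 and 122 reads in the BEC pair, 116 and 328 in the LEC pair and 42 and 120 in skin. Its log2 ratios of 1.25 (0.81 to 1.70), 1.27 (0.96 to 1.59) and 1.14 (0.62 to 1.68) were all above 0 and all under 3-fold. Vsir, the VISTA checkpoint gene, listed as 4632428N05Rik, was called lower in OE-BECs, with 203 and 32 reads (log2 ratio -2.28, -2.87 to -1.74). In the LEC pair it had 175 and 95 reads and a ratio of -1.11, and it was not called. The genes called higher were Pdcd1lg2 in OE-BECs, with 0 and 4 reads, and Vtcn1 in OE-LECs, with 1 and 21. In skin 1 of 14 was called higher (Ctla4, 0 and 6 reads) and 1 lower (Btla, 62 and 3), against 5.17% and 2.41% of all genes.

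Emp2 was a low gene of the cultured lines and a moderate one of skin. Emp2 (chr16:10281749-10313968, minus strand) had 160 and 204 reads in skin Cont and cKO, 0 and 10 in the BEC pair, and 11 and 58 in the LEC pair. The levels were 18.1, 18.4, 0, 0.718, 0.421 and 1.87 CPM, and 0 reads allow up to 0.17 CPM (3 reads, the limit used for the fold below). The interval drawn for it in the plot of levels, which is two-sided, reaches 0.209 CPM. The skin libraries overlapped and were above all cultured ones, and both OE lines were above their controls. Against that limit of 3 reads Emp2 was at least 4.35-fold higher in OE-BECs (log2 2.12), a bound that leaves out the counting error of its 10 reads. With that error the log2 ratio could be as low as 1.55, the lower end of its interval. In OE-LECs it was 4.49-fold higher than in Cont LECs (log2 ratio 2.17, interval 1.22 to 3.25). In skin the ratio was 0.981-fold (log2 -0.03, -0.33 to 0.28). Of 11 tested relatives and partners 0 were called in either direction in any of the 3 comparisons, where 2.09% to 8.02% of all genes were, so this count is near that of any 11 genes. Their median log2 ratio was 0.0 in the BEC pair, 0.23 in the LEC pair and -0.37 in skin. The paralogue Emp1 had 4023 and 7908 reads in the BEC pair (log2 ratio 1.36, 1.30 to 1.41) and 24507 and 40045 in the LEC pair (0.48, 0.45 to 0.50). Emp3 had 354 and 367 reads in the BEC pair (0.43) and 1706 and 3804 in the LEC pair (0.93). Cav1, the caveolar coat gene, had ratios of 1.11 and 0.09.

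Fat2 was low per length in all libraries, at 0.0395 to 0.23 CPM per kilobase of exon (RPKM, over GENCODE M21 exons). Fat2 (chr11:55250609-55336564, minus strand) had 27 and 37 reads in skin Cont and cKO, 13 and 39 in the BEC pair, and 15 and 64 in the LEC pair, or 3.05, 3.34, 0.735, 2.80, 0.574 and 2.06 CPM. The 2 cultured controls were lowest and overlapped each other, and the intervals of neighbours in the order of the other 4 libraries overlapped. The log2 ratio was 1.97 (interval 1.03 to 3.0) in the BEC pair, 1.86 (1.03 to 2.78) in the LEC pair and 0.08 (-0.68 to 0.85) in skin. The other Fat and Dachsous cadherins are large adhesion proteins of planar polarity. Their list also held Fjx1, which is not a cadherin and was tested in skin only. None of the 2, 3 and 5 listed genes tested in the BEC pair, the LEC pair and skin was called. That is usual for so few genes when 2.09% to 8.02% of all genes were called. The median log2 ratios of the listed genes were -1.34, -0.13 and -0.03. Dchs1 had 4241 and 1130 reads in the BEC pair (-1.53, -1.62 to -1.43) and 3037 and 1480 in the LEC pair (-1.27, -1.36 to -1.18). Fat4 had 4002 and 1378 reads in the BEC pair (-1.16, -1.24 to -1.07) and 1091 and 1169 in the LEC pair (-0.13). Fat1 had 2 and 2 reads in the BEC pair and 17 and 58 in the LEC pair (1.54, 0.74 to 2.41).

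Sulf1 was higher in both OE lines, at levels that overlapped or lay below those of skin. Sulf1 (chr1:12692277-12861192, plus strand) had 421 and 573 reads in skin Cont and cKO, 337 and 461 in the BEC pair, and 429 and 1560 in the LEC pair. The levels were 47.5, 51.7, 19.1, 33.1, 16.4 and 50.3 CPM. Skin Cont, skin cKO and OE-LECs overlapped at the top, OE-BECs lay apart below them, and the cultured controls overlapped at the bottom. The log2 ratio was 0.83 (interval 0.63 to 1.04) in the BEC pair, 1.63 (1.48 to 1.79) in the LEC pair and 0.07 (-0.12 to 0.25) in skin.

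Of the genes that build, edit or carry heparan sulfate, 21 were tested in each cultured pair. In OE-BECs 1 was called higher and 0 lower (median log2 ratio -0.08, against 0.01 for all genes), and in OE-LECs 0 (0.29, against 0.0). Such counts are near the shares of all genes called, 8.02% and 5.27% in the BEC pair and 2.77% and 2.09% in the LEC pair. Sulf2, the other endosulfatase, had 2015 and 2023 reads in the BEC pair (0.39, 0.30 to 0.48) and 5100 and 8200 in the LEC pair (0.45, 0.40 to 0.50). The 1 called was Hpse, the heparanase that cuts the chains, at 1 and 7 reads (3.19, 0.23 to 8.68). In the LEC pair Hpse had 35 and 84 reads (1.03, 0.45 to 1.64), and in skin it had 28 and 242 (2.73, 2.17 to 3.35) and was called higher. The core protein gene Sdc1 had 558 and 952 reads in the BEC pair (1.15) and 3559 and 5579 in the LEC pair (0.42). In skin 3 of 31 were called higher and 0 lower, against 5.17% and 2.41% of all genes, the other two higher being Extl1, with 2 and 17 reads, and Gpc5, with 3 and 17.

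Sphk1 had the largest ratio of the 7 in the LEC pair. Sphk1 (chr11:116530925-116536674, plus strand) had 9 and 23 reads in skin Cont and cKO, 16 and 51 in the BEC pair, and 23 and 239 in the LEC pair. The levels were 1.02, 2.07, 0.905, 3.66, 0.881 and 7.70 CPM. OE-LECs stood apart, and each of the others overlapped the next in order. The log2 ratio was 3.15 (interval 2.53 to 3.83) in the LEC pair, or 8.85-fold. It was 2.06 (1.22 to 2.97) in the BEC pair, or 4.16-fold, and 0.98 (-0.19 to 2.27) in skin. An antisense gene, Gm29292, overlaps Sphk1 in the annotation and was not in the count table. Reads were counted with the -S option of VERSE, and whether this uses strand is not given in the sources used here.

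The other genes of the sphingosine-1-phosphate pathway had medians near that of all genes. Of 17 tested in each cultured pair, 1 was called higher and 1 lower in OE-BECs (median log2 ratio 0.14, against 0.01 for all genes) and 1 higher and 0 lower in OE-LECs (0.09, against 0.0). These counts are near the shares of all genes called, 8.02% and 5.27% in the BEC pair and 2.77% and 2.09% in the LEC pair. In skin 0 of 18 were called (0.01), against 5.17% of all genes higher and 2.41% lower. Sphk2, the second kinase, had 617 and 431 reads in the BEC pair (-0.13, -0.32 to 0.05) and 939 and 1025 in the LEC pair (-0.10). The main endothelial receptor gene S1pr1 had 10054 and 7577 reads in the BEC pair (-0.03) and 25567 and 28087 in the LEC pair (-0.10). Those called higher had few reads, S1pr5 with 0 and 13 in the BEC pair and S1pr4 with 0 and 5 in the LEC pair. Spns2, which exports the lipid, had 555 and 967 reads in the BEC pair (1.18, 1.03 to 1.34) and 3495 and 5422 in the LEC pair (0.40, 0.34 to 0.46). The gene called lower in OE-BECs was Acer2, a ceramidase that supplies sphingosine. It had 978 and 192 reads (-1.97, -2.20 to -1.74), and 578 and 313 in the LEC pair (-1.12, -1.32 to -0.91).

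Map6 reached nearly the same level in both OE lines. Map6 (chr7:99267447-99337137, plus strand) had 21 and 33 reads in skin Cont and cKO, 103 and 246 in the BEC pair, and 128 and 579 in the LEC pair. The levels were 2.37, 2.98, 5.82, 17.7, 4.90 and 18.7 CPM. The OE lines overlapped at the top, and the cultured controls overlapped each other below them. The log2 ratio was 1.64 (interval 1.30 to 1.99) in the BEC pair, 1.95 (1.67 to 2.23) in the LEC pair and 0.27 (-0.56 to 1.14) in skin.

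Other microtubule-associated genes had medians near that of all genes in the cultured pairs. Of 16 tested in the BEC pair 1 was called higher and 1 lower (median log2 ratio 0.05), against 8.02% and 5.27% of all genes. Of 15 in the LEC pair 0 were called higher and 2 lower (-0.13), against 2.77% and 2.09%. In skin 0 of 21 were called (-0.29), against 5.17% of all genes higher and 2.41% lower. The abundant family member Map4 had ratios of 1.06-fold and 1.08-fold in the BEC and LEC pairs, and Map1b 0.91-fold and 0.942-fold. The gene called higher in OE-BECs was Map7, with 0 and 3 reads. Dclk1, a microtubule-binding kinase, was lower in both pairs, with 1122 and 195 reads (-2.14, -2.37 to -1.92) and 1037 and 397 reads (-1.62, -1.79 to -1.45). The paralogue Map6d1, also a microtubule stabiliser, had 16 and 27 reads in the BEC pair (1.14, 0.19 to 2.13) and 35 and 12 in the LEC pair (-1.78, -2.86 to -0.79).

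**Figure D3:**
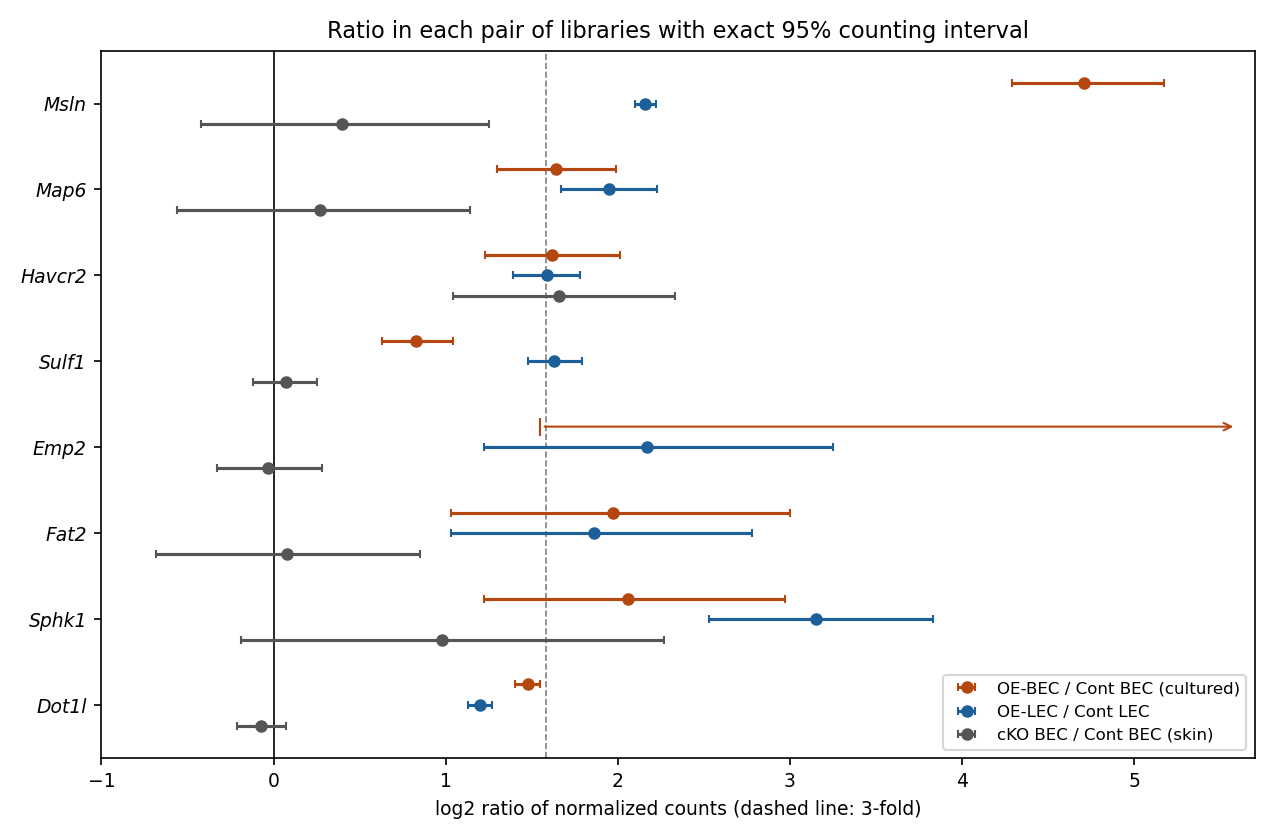
Log2 ratio of normalised counts of each gene, and of Dot1l, in OE-BECs, OE-LECs and skin cKO BECs against the matched control (points), with exact 95% counting intervals (bars) and a dashed line at 3-fold. Emp2 in OE-BECs, with 0 control reads, is an arrow from the lower end of its interval, 1.55, and in skin the interval of Havcr2 alone lies above 0.

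**Figure D4:**
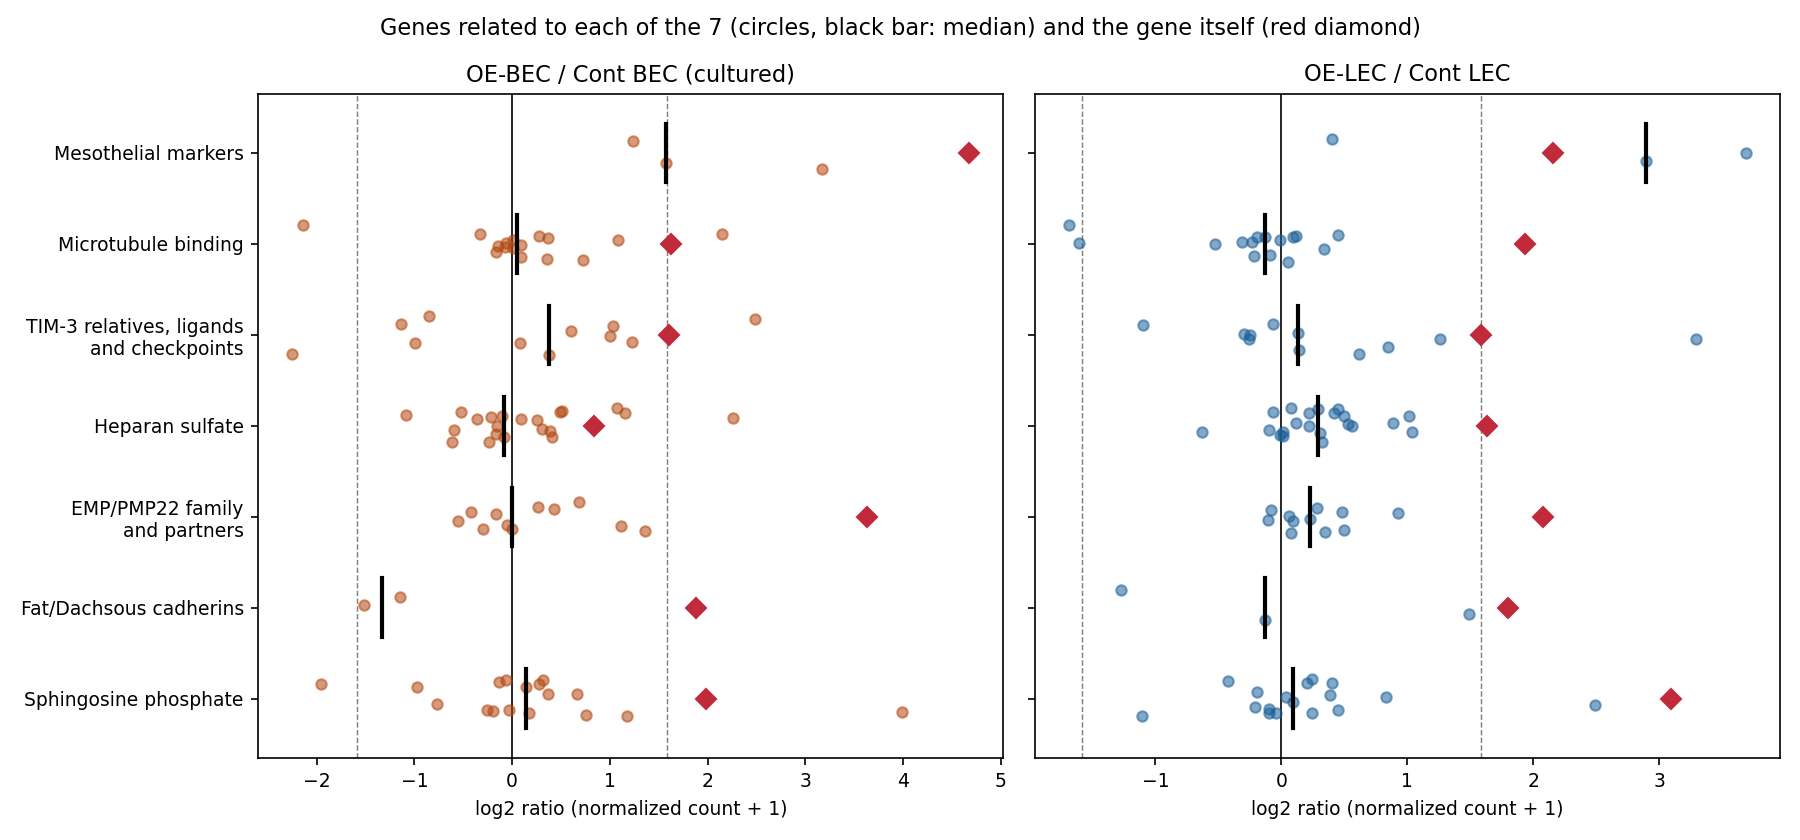
Log2 ratio of normalised counts, with 1 added to each, for the genes related to each of the 7 (circles, black bar for the median) and for the gene itself (red diamond) in the BEC pair and the LEC pair, with dashed lines at 3-fold. The list medians lie between -1.34 and 0.38 in the BEC pair apart from the mesothelial markers, of which only the 3 that reached the minimum are drawn, each through its OE-BEC reads.

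Per length, the 7 genes spread over a wide range. In OE-LECs they ordered as Msln (151 RPKM), Havcr2 (11.8), Sulf1 (4.45), Map6 (2.04), Sphk1 (1.61), Emp2 (0.216) and Fat2 (0.142). In OE-BECs the order was Msln (22.1), Havcr2 (4.96), Sulf1 (2.93), Map6 (1.93), Sphk1 (0.767), Fat2 (0.193) and Emp2 (0.083). In skin Cont the highest were Sulf1 (4.21), Emp2 (2.09) and Havcr2 (1.12).

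Across the 6 libraries the 7 profiles were alike to different degrees. Pearson's r of log2(CPM + 1), over 6 points that differ in cell source and depth, was 0.88 for Msln and Havcr2, 0.86 for Sphk1 and Havcr2, 0.81 for Map6 and Sphk1 and 0.79 for Msln and Map6. It was 0.91 for Sulf1 and Fat2, 0.78 for Sulf1 and Emp2 and 0.77 for Emp2 and Fat2. Between Msln, Map6 or Havcr2 and Sulf1, Emp2 or Fat2 it ran from -0.59 (Map6 and Emp2) to 0.23 (Havcr2 and Sulf1). Sphk1 had 0.69 with Msln, but also 0.57 with Sulf1, 0.42 with Fat2 and -0.04 with Emp2. Sulf1, Emp2 and Fat2 were the ones whose skin levels lay above both cultured controls with no overlap of intervals. The genes with the most alike profile among 13265 with at least 100 reads were Nmt2, Rbm34 and Lsm1 for Msln (0.998, 0.998 and 0.997), Cacnb3, Styk1 and Met for Map6 (0.991, 0.976 and 0.973) and Hspbap1, Nipal1 and Ampd3 for Havcr2 (0.961, 0.959 and 0.958). For Sulf1 they were Psca, Erbb2 and Plxna4 (0.953, 0.949 and 0.949), for Emp2 Snx18, Ccne2 and Atp1b1 (0.998, 0.997 and 0.995), for Fat2 B3gntl1, Plxna4 and Erbb2 (0.992, 0.981 and 0.976) and for Sphk1 Sema4b, Ezr and Phf11b (0.95, 0.948 and 0.944). With 6 points such likeness was common for Msln and Emp2, where 479 and 2514 genes passed 0.9. It was rarer for Map6 (52 genes), Havcr2 (36), Fat2 (19), Sulf1 (15) and Sphk1 (9). It also ignores size, as Nmt2 ranged over 72.4 to 166 CPM where Msln ranged over 2.37 to 464. None of these 21 choices was shared when ranks were used in place of r. With 6 libraries many genes share the same order of ranks, so nothing is read from this.

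In total 88 genes were called higher in both OE lines. They are 7.42% of the 1186 called in OE-BECs and 22.9% of the 385 called in OE-LECs, and 6 of the 7 are among them. Most had few reads, with a median of 9.5 in OE-BECs, where 59 of the 88 were under 20 normalised counts. At 100 or more normalised counts in the higher library of both pairs only 8 remained, or 0.0826% of 9687 genes tested. They were Msln, Map6, Havcr2, Axl, S100a4, Sema3c, Mmp3 and AI607873. Axl, a receptor tyrosine kinase, had 14 and 123 reads in the BEC pair (log2 ratio 3.52, interval 2.72 to 4.43) and 176 and 1249 in the LEC pair (2.60, 2.37 to 2.83). Sema3c, a secreted guidance cue, had 10 and 93 reads (3.60, 2.66 to 4.71) and 136 and 607 (1.93, 1.66 to 2.21). S100a4, a calcium-binding protein gene, had 47 and 156 reads (2.11, 1.63 to 2.62) and 508 and 4648 (2.96, 2.83 to 3.10). The stromelysin gene Mmp3 had 66 and 224 reads (2.15, 1.74 to 2.56) and 292 and 1063 (1.63, 1.45 to 1.83), and AI607873 117 and 270 reads (1.59, 1.27 to 1.91) and 45 and 727 (3.78, 3.35 to 4.25). Msln had the largest ratio of the 8 in the BEC pair and the fourth largest in the LEC pair. Of the 88, 63 could be tested in skin, where 7 were called higher, or 11.1% against 5.17% of all genes, and 2 lower, or 3.17% against 2.41%. Havcr2 was the 1 of the 8 called there.

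**Figure D5:**
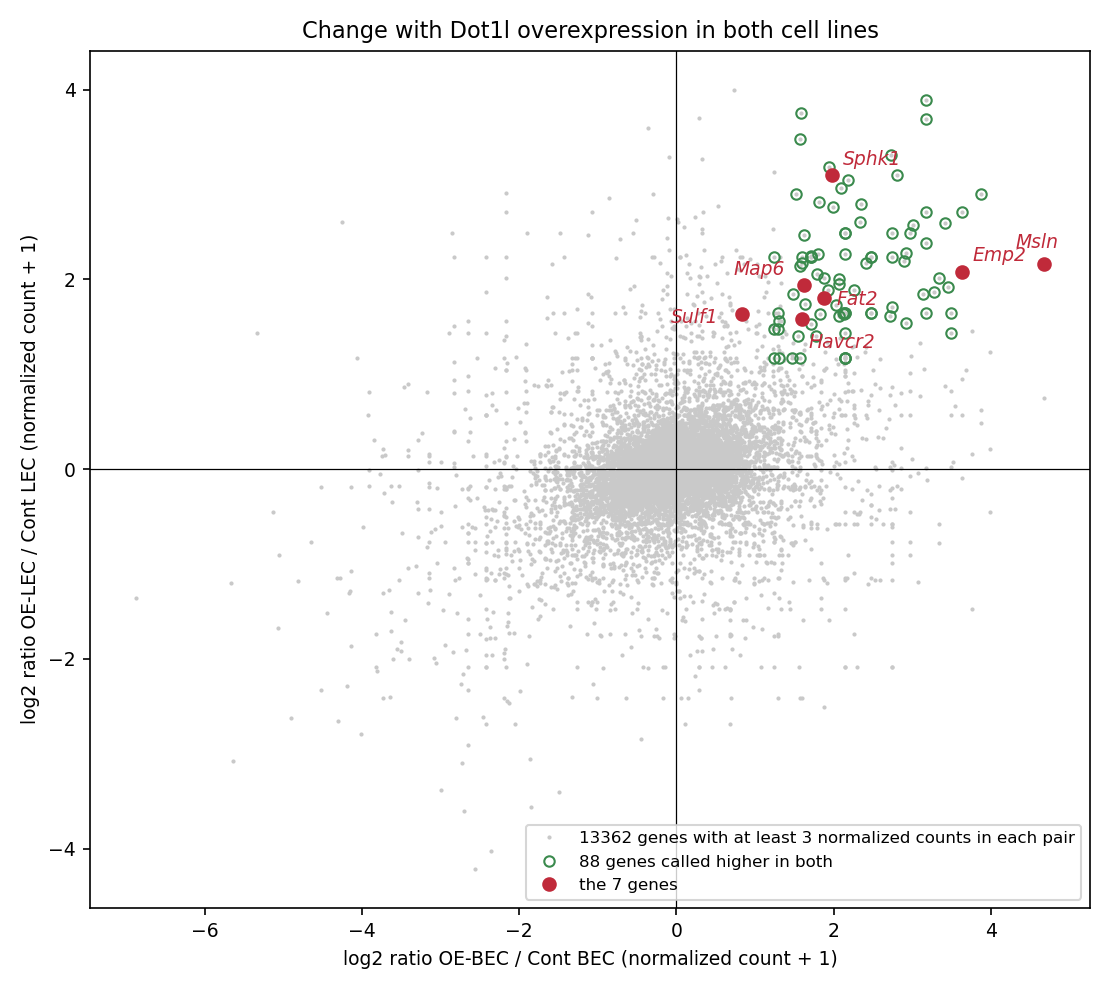
Log2 ratio of normalised counts, with 1 added to each, in the BEC pair (x) and the LEC pair (y) for the 13362 genes tested in both (grey), with the 88 called higher in both ringed in green and the 7 named in red. Msln lies at 4.68 and 2.16 and Sphk1 at 1.98 and 3.10, and Sulf1 is the one of the 7 not called in both.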

How the data were processed

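The authors trimmed reads with skewer, aligned them to mm10 with STAR, counted them per gene with VERSE (-S option) and deposited raw counts for 6 ScriptSeq libraries, 1 per condition. Whether that option uses strand is not given in the sources used here. Total counts were 8863349 to 31032461, so 3 reads, the limit that a count of 0 allows, are 0.0967 to 0.338 CPM. Each pair was scaled by the median of ratios (DESeq2 1.42.0, R 4.3.3), and genes were called by the minimum and 3-fold rule of the study's methods. No test was run, as no condition has replicates. Ratios carry exact Clopper-Pearson intervals and levels exact Poisson intervals (95%, scipy 1.17.1). List medians used log2(normalised count + 1). RPKM used GENCODE M21 exons. Scripts were tested on simulated data. Alternatives were edgeR 4.0.16 TMM, size factors over 6 libraries, total counts with and without Rn45s, a pseudocount and other minimums.

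The 7 genes and the gene lists were chosen with earlier results of these data known. Named genes were the 7, members of the lists, Dot1l, the 3 most alike profiles for each and up to 10 other genes called in both lines at 100 or more normalised counts. Neighbours and promoters follow the annotation. Dchs2 and Muc16 were matched to no row, and 23 of the 24 listed microtubule-associated genes were matched.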

Additional observations from a re-analysis of the deposited data

Results flagged for a closer look

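Map6d1, the paralogue of Map6, differed from its control in opposite directions in the overexpressing lines, higher in OE-BECs and lower in OE-LECs, with both counting intervals away from 0. Its log2 ratio in the BEC pair exceeded that in the LEC pair by 2.91. The counts behind it were 16 and 27 reads in Cont BECs and OE-BECs and 35 and 12 reads in Cont LECs and OE-LECs. The difference was not tested, since each line has 1 library per condition.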

How the results depend on the processing

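Each condition has 1 library, and no paired analysis across the cultured lines and no test was run. No direction of a called value reversed. The counts of genes called changed with the minimum. With a minimum of 20 normalised counts 222 genes were called higher in OE-BECs, 109 in OE-LECs and 26 in both, and 372 higher and 153 lower in skin. With no minimum these were 2086, 1437, 380, 1833 and 1160. Size factors from all 6 libraries gave 246 in OE-LECs. For Cont LECs and OE-LECs these factors were 1.65 and 1.94, against 0.923 and 1.083 within the pair. The same minimum of normalised counts therefore asked for more reads. How much of the change this made was not tested. The other 52 of 63 counts stayed within 1.5 times. Of the 7 genes, 6 were called in both lines in the values reported and with no minimum, and 5 in each other setting. Havcr2 dropped out with TMM, 6-library factors, total counts with or without Rn45s and a pseudocount of 1 (2.96 to 3.0-fold in OE-LECs), and Emp2 with a minimum of 20. All 105 other log2 ratios of the 7 genes stayed within the counting interval of the value reported, Emp2 in OE-BECs ranging over 2.08 to 2.16 against 3 reads and standing at 3.63 with a pseudocount of 1. Of 152 list medians recalculated under other scalings, 151 moved by less than a 1.5-fold change in the ratio they stand for. The exception was mesothelial markers in OE-LECs (2.2 with 6-library factors). The median of the Fat and Dachsous cadherins in the BEC pair was not recalculated. List medians already use a pseudocount of 1. Low counts in the cultured controls, 0 to 23 reads, limit the precision for Emp2, Fat2 and Sphk1 there.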

Other observations

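Of the 14 protein-coding genes nearest to the 7 on either side, 1 was called higher in OE-BECs and 1 in OE-LECs, near the 8.02% and 2.77% of all genes, and it was the same gene, Mslnl, picked out after its values were seen. None was called lower in either line, against 5.27% and 2.09% of all genes. In skin none was called, against 5.17% of all genes higher and 2.41% lower. For 14 genes these counts are near those shares. Mslnl, the mesothelin-like gene, ends 0.283 kb from Msln on chromosome 17 and is similar to it. It had 2 and 5 reads in skin Cont and cKO, 4 and 29 in the BEC pair and 7 and 26 in the LEC pair. Its log2 ratio was 3.24 (counting interval 1.73 to 5.21) in the BEC pair and 1.66 (0.42 to 3.11) in the LEC pair. Whether reads of Msln were assigned to it was not tested. The next nearest neighbours were not called. Ube2o, 1.07 kb from Sphk1, had log2 ratios of 0.23 and 0.11 in the BEC and LEC pairs. Slco5a1, 5.36 kb from Sulf1, had -0.09 (-0.75 to 0.56) and 0.64 (0.14 to 1.15). Serpinh1, a collagen chaperone gene 8.24 kb from Map6, had 0.35 and 0.01.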
